A study of Mus musculus with 4 samples.

Results

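The mitochondrial respiratory chain and ATP synthase were represented by 71 of the 8252 genes on the array, read by 98 of its 12488 probe sets. Members were the probe sets with a single gene symbol that begins with Nduf, Uqcr, Atp5 or Cox followed by a digit from 4 to 8, or that is Sdha, Sdhb, Sdhc, Sdhd, Cyc1 or Cycs. Cox7a1 and Cox8b were left out of this definition, and no measured value entered it. By complex there were 31 genes for complex I, 4 for complex II, 9 for complex III with cytochrome c, 13 for complex IV and 14 for complex V. The 31 genes of complex I include Ndufaf1 and Ndufaf4, which code for assembly factors and not for subunits. A further 10 probe sets that pair a member with another gene symbol were not used.

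The arrays, of the Affymetrix MG-U74Av2 type, were hybridised with RNA pooled from the aortas of C57BL/6J mice, all adult males. In the rosiglitazone group, 2 arrays (replicates 1 and 2) came from mice given the PPAR gamma agonist rosiglitazone at 25 mg/kg per day for 21 days. In the vehicle group, 2 arrays (replicates 3 and 4) came from mice given vehicle for 21 days. No genotype or disease model is named for either group, and the sources used here do not state how many mice made up a pool. Nothing says whether 2 arrays of a group stand for 2 pools, so the p-values rest on a spread between arrays that may be only technical.

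Oxidative phosphorylation passes electrons from NADH (complex I, NADH dehydrogenase) and succinate (complex II, succinate dehydrogenase) through ubiquinone to complex III, then by cytochrome c to complex IV (cytochrome c oxidase) and oxygen. Complexes I, III and IV pump protons across the inner mitochondrial membrane, and complex V, the ATP synthase, makes ATP as the protons return. Brown adipocytes, which surround the rodent thoracic aorta, are dense with these complexes and can also let protons back through the uncoupling protein Ucp1 with release of heat, while smooth muscle cells of the vessel wall are much poorer in mitochondria. Most subunits are coded in the nucleus, and those described here are all of that kind.

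The unit is hybridisation intensity, not on a log scale, with arrays scaled by the authors to a common trimmed mean of 1501. Intensities under 148 were raised to 148 before log2 was taken, and 7134 probe sets with enough mean signal were tested with limma, as were 79 of the 98 member probe sets, for 66 of the 71 genes. The ratio of 3' to 5' signal was 7.74 and 9.62 on the rosiglitazone arrays against 8.88 and 11.9 on the vehicle arrays for actin. For Gapdh it was 8.79 and 10.8 on the rosiglitazone arrays against 11.1 and 11.1 on the vehicle arrays. On every array both ratios were 7.74 or higher, so a 3' excess was present in both groups. For actin the groups overlapped. The 3' excess for Gapdh was lower on both rosiglitazone arrays, though 10.8 lay close to 11.1. This sign of RNA quality thus moved with the groups for Gapdh only, and its part in the results was not tested. Of 7 smooth muscle marker genes measured, 7 passed the filter on dim probe sets, as did 7 of 10 brown adipocyte markers, so markers of both were detected.

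Most respiratory chain and ATP synthase genes had somewhat higher intensities with rosiglitazone. On the brightest tested probe set of each gene, 60 of 66 genes had a log2 fold change (rosiglitazone minus vehicle) above 0, and the median was 0.37, a fold of 1.29. Among all 5466 genes tested 48.2% lay above 0 and the median was -0.02. The quartiles of the 66 genes were 0.17 and 0.53, and those of all genes were -0.39 and 0.33. The extremes of the 66 were Ndufa1 at -0.66 and Cox6b2 at 1.23.

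No single gene passed the test. At an adjusted p of 0.05 (limma, Benjamini-Hochberg over all 7134 probe sets) 0 of 79 member probe sets were called, where 0.364% of all probe sets were called in either direction and 0.0421% as higher. The smallest adjusted p of a member was 0.0799, for Ndufa7. At an unadjusted p under 0.05, 17 of the 79 were higher and 0 lower, where 5.12% of all probe sets were higher and 5.76% lower. Without the intensity trend in limma 0 were called and 2 of the 79 had an unadjusted p under 0.05. The share of all probe sets at that p without the trend was not counted. Both rosiglitazone arrays lay above both vehicle arrays for 44 of the 79 probe sets, or 55.7%, and for 38 of the 66 genes, or 57.6%, where the shares over everything tested were 19.0% and 19.1%. Both lay below for 5 probe sets and 4 genes, where the shares over everything tested were 21.8% and 22.0%. The 4 genes were Ndufa1, Ndufv1, Ndufaf4 and Sdha. These counts cover the members that passed the filter on dim probe sets.

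**Figure D1:**
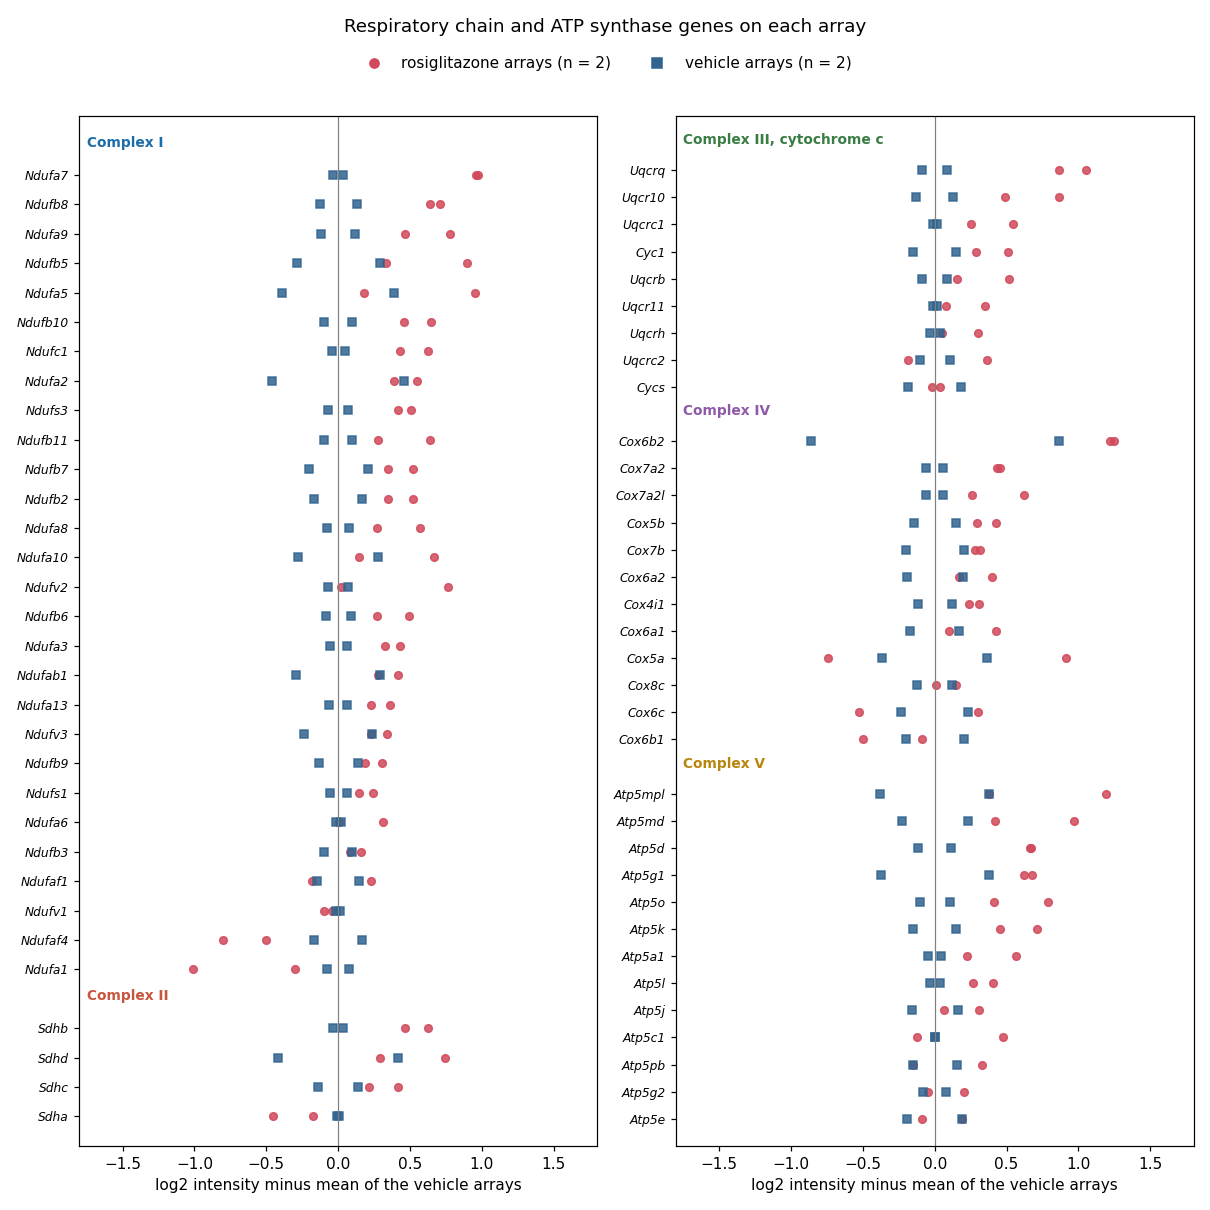
Log2 intensity of each of the 66 tested genes on each array, minus the mean of the gene's vehicle arrays, by complex and ordered by fold change (circles, 2 rosiglitazone arrays; squares, 2 vehicle arrays; brightest probe set of each gene). For 38 genes both circles lie right of both squares, and for 4 genes, Ndufa1, Ndufv1, Ndufaf4 and Sdha, both lie left of them.

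**Figure D2:**
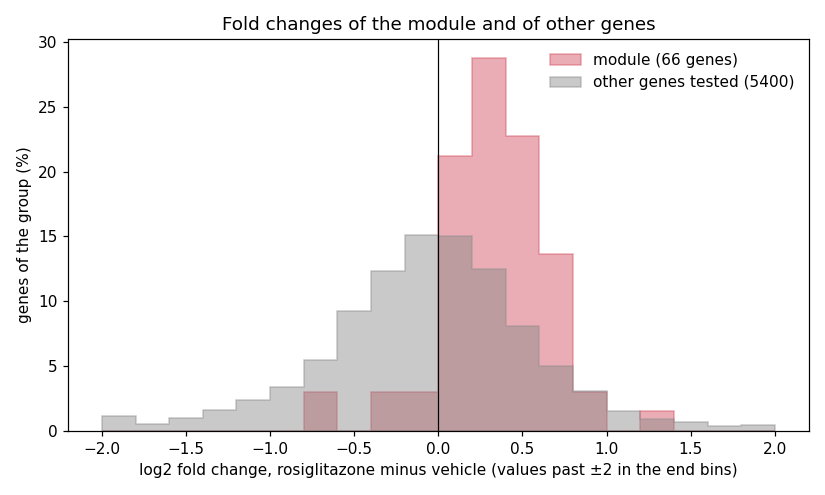
Share of genes in bins of log2 fold change, rosiglitazone minus vehicle, for the 66 module genes and for the 5400 other genes tested. The module genes centre on a median of 0.37 and the other genes on -0.03, and the 2 distributions overlap.

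The nuclear genes of the respiratory chain are known to carry sites for NRF1, for ETS factors such as GABPA, and for YY1 close to their start sites, and to respond to the coactivator PGC-1 alpha with ERR alpha. Promoters of 300 bases, 250 before the start and 50 after it, were matched by symbol for 57 of the 71 genes in RefSeq's GRCm38.p6 annotation. Both strands were searched. The core of an NRF1 site, GCGCA and GCGC separated by 1 base of any kind, was found in 12 of the 57 genes, or 21.1%, and in 5.19% of all 27025 genes with a promoter. The letters CCGGAAG of ETS sites were in 16 of the 57 genes, or 28.1%, and in 9.93% of all genes. The letters AAGATGGC of YY1 sites were in 8 of the 57, or 14.0%, and in 3.19% of all genes. The 3 motifs differ in their letters, and a promoter may hold several of them. The members' promoters were also richer in G and C, with a median of 59% against 52.7% over all 32851 promoters, and the part of base composition in these shares was not tested.

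For the 12 genes with the NRF1 letters, 30 bases are shown 5′ to 3′ in the direction of the gene, with the NRF1 letters or their reverse complement in capitals and coordinates in GRCm38.p6. Where a gene held several, the match nearest to the start site is shown. They are shown because each of the 5 complexes had a gene with these letters, among them Sdha and Ndufaf4, which had lower intensities with rosiglitazone.
Ndufa5, chr6:24527697-24527726, minus strand: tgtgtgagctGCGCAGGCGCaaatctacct
Ndufa6, chr15:82354249-82354278, minus strand: ccgtggcaccGCGCGTGCGCacgctgaagg
Ndufa8, chr2:36049349-36049378, minus strand: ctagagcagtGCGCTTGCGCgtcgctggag
Ndufaf4, chr4:24897960-24897989, plus strand: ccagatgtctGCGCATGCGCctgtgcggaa
Sdha, chr13:74350231-74350260, minus strand: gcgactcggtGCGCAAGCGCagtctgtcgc
Sdhd, chr9:50603909-50603938, minus strand: tcgctggggtGCGCACGCGCggtggcagcg
Uqcrc1, chr9:108936643-108936672, plus strand: cttccttacaGCGCTTGCGCctcagactcc
Cox6a1, chr5:115349056-115349085, minus strand: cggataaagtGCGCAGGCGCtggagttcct
Atp5c1, chr2:10080430-10080459, minus strand: ctgagctcccGCGCACGCGCactgagtccc
Atp5g2, chr15:102671070-102671099, minus strand: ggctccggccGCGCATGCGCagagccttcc
Atp5k, chr5:108434430-108434459, minus strand: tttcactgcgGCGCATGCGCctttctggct
Atp5o, chr16:91931602-91931631, minus strand: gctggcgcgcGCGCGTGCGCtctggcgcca

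For the 8 genes with the YY1 letters, the same length is shown with AAGATGGC or its reverse complement in capitals. In 6 of these genes the letters lay on the sense strand from 23 to 39 bases after the start. These letters hold ATGGC, which can also be a start codon followed by the beginning of an alanine codon, so a match there need not be a binding site.
Ndufa3, chr7:3617384-3617413, plus strand: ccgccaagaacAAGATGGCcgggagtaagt
Ndufa9, chr6:126849097-126849126, minus strand: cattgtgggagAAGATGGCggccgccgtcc
Ndufb8, chr19:44555393-44555422, minus strand: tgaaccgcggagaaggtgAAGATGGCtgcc
Ndufc1, chr3:51408915-51408944, minus strand: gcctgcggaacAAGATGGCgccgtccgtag
Ndufs4, chr13:114388045-114388074, minus strand: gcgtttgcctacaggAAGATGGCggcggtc
Atp5j, chr16:84835046-84835075, minus strand: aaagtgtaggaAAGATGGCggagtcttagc
Atp5j2, chr5:145191500-145191529, minus strand: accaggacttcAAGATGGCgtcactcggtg
Atp5pb, chr3:105959248-105959277, minus strand: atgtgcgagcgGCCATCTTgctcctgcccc

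Cox6a1, the widely expressed form of a regulatory subunit of complex IV, held the NRF1 letters at 2 positions and the ETS letters at 1, all before its start. The 250 bases before its start site, chr5:115348959-115349208 on the minus strand of GRCm38.p6, are given with the NRF1 letters and the reverse complement of the ETS letters in capitals.
Cox6a1: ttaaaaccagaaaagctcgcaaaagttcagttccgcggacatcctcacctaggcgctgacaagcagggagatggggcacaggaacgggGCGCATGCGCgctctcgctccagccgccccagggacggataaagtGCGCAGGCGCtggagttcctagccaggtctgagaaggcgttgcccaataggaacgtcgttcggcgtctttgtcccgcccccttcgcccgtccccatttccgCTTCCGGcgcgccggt

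The median log2 fold change was 0.30 over the 24 tested genes with NRF1 or ETS letters and 0.42 over the 28 tested genes with a promoter and neither. The ERR letters TCAAGGTCA were in 1 of the 57 genes, Sdhd, or 1.75%, and in 0.466% of all genes. A repeat of AGGTCA with 1 base of any kind between its copies, the form of site to which PPARs bind with RXR, was in 0 of the 57 and in 0.0481% of all genes. A lack of these letters in this window says nothing of binding elsewhere.

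Complex I, the largest of the complexes and the entry point for electrons from NADH, had 24 of 26 tested subunit genes above 0, with a median log2 fold change of 0.41. Both rosiglitazone arrays lay above both vehicle arrays for 16 of the 26, where they did for 19.1% of all genes tested. Ndufa7, an accessory subunit, had 81081 and 81745 with rosiglitazone against 40729 and 42751 with vehicle. Its groups were far apart and each pair of arrays was close, giving a log2 fold change of 0.96 (standard error 0.20; limma, adjusted p = 0.0799). Ndufb8, an accessory subunit of the membrane arm, had 41015 and 43038 with rosiglitazone against 24133 and 28801 with vehicle. Again there was no overlap, and the log2 fold change was 0.67 (limma, adjusted p = 0.231). Ndufa9, an accessory subunit of the matrix arm, had 19402 and 24079 with rosiglitazone against 15248 and 12924 with vehicle, a log2 fold change of 0.62 (limma, adjusted p = 0.316). Ndufb10 had 18312 and 16068 with rosiglitazone against 12484 and 10934 with vehicle. Ndufc1 had 51621 and 45093 with rosiglitazone against 34454 and 32414 with vehicle. Both are accessory subunits of the membrane arm, and for both the 2 groups did not overlap.

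The nuclear-coded core subunits of complex I, most of which hold its flavin or iron-sulfur clusters, differed in their values. Ndufv1, which carries the flavin that takes electrons from NADH, had 46175 and 48071 with rosiglitazone against 49873 and 48962 with vehicle. All 4 of these values lay within a narrow range, and the log2 fold change was -0.07 (standard error 0.19; limma, adjusted p = 0.930) and 0.014 with each array centred on its median. Ndufs1, the largest iron-sulfur subunit, had 19104 and 20412 with rosiglitazone against 16612 and 18007 with vehicle, a log2 fold change of 0.19 (limma, adjusted p = 0.782). Ndufs3 had 32948 and 31051 with rosiglitazone against 24364 and 22157 with vehicle. Ndufs3 is a core subunit of the matrix arm, and its log2 fold change was 0.46 (limma, adjusted p = 0.433). Ndufv2, which carries another iron-sulfur cluster of the NADH-oxidising part, had 35051 and 20924 with rosiglitazone against 21666 and 19702 with vehicle, so that its groups overlapped and rosiglitazone replicate 1 stood above the rest. A dimmer probe set of Ndufv2 had 5009 and 5508 with rosiglitazone against 3814 and 4781 with vehicle, with no overlap and a log2 fold change of 0.30. The other 16 subunits tested had log2 fold changes from 0.12 (Ndufb3) to 0.62 (Ndufb5). In 9 of the 16 both rosiglitazone arrays lay above both vehicle arrays, where 19.1% of all genes did.

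Ndufa1, an accessory subunit coded on the X chromosome, lay lowest of the 26 tested complex I subunits, at 644 and 392 with rosiglitazone against 835 and 750 with vehicle. These are dim values and the standard error was 0.58 around a log2 fold change of -0.66 (limma, adjusted p = 0.743). Of the assembly factors, Ndufaf4 had 593 and 481 with rosiglitazone against 749 and 942 with vehicle. Ndufaf1 had 2566 and 1932 with rosiglitazone against 1985 and 2427 with vehicle. The arrays of Ndufaf1 overlapped on this probe set, while a dimmer probe set of Ndufaf1 had 807 and 971 with rosiglitazone against 433 and 667 with vehicle.

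Complex II, which is also an enzyme of the citric acid cycle, had 3 of its 4 genes above 0, with a median of 0.42. Sdhb, the iron-sulfur subunit, had 69889 and 62533 with rosiglitazone against 46404 and 44116 with vehicle. The groups did not overlap, and the log2 fold change was 0.55 (standard error 0.20; limma, adjusted p = 0.356). Sdhc, a membrane anchor, had 30296 and 34821 with rosiglitazone against 23750 and 28781 with vehicle. Sdhd, the other anchor, had 46010 and 33661 with rosiglitazone against 36633 and 20592 with vehicle, with overlap. Sdha, the flavoprotein that oxidises succinate, ran the other way at 3940 and 4774 with rosiglitazone against 5362 and 5414 with vehicle. Its groups did not overlap either, at a log2 fold change of -0.31 (standard error 0.23; limma, adjusted p = 0.688).

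Complex III with cytochrome c had 9 of 9 tested genes above 0, with a median of 0.34. In 7 of the 9 both rosiglitazone arrays lay above both vehicle arrays, where 19.1% of all genes did. Uqcrq, a small subunit named for ubiquinone binding, had 195264 and 222059 with rosiglitazone against 100817 and 113812 with vehicle. Its log2 fold change was 0.96 (standard error 0.22; limma, adjusted p = 0.116), the second smallest p among the members. Uqcr10, another small subunit, had 72958 and 56383 with rosiglitazone against 36724 and 43898 with vehicle, a log2 fold change of 0.68 (limma, adjusted p = 0.293). Uqcrc1, a core protein of the complex, had 57264 and 46699 with rosiglitazone against 39577 and 38816 with vehicle. Uqcrb, which binds near the quinone site, had 101546 and 130441 with rosiglitazone against 96822 and 85820 with vehicle. In both the lower rosiglitazone array was above the higher vehicle array.

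Cyc1, the haem-bearing cytochrome c1, had 184352 and 157921 with rosiglitazone against 116825 and 143495 with vehicle, and a second probe set gave 10083 and 14677 with rosiglitazone against 8065 and 8624 with vehicle. The probe sets thus separated the groups alike, at log2 fold changes of 0.40 and 0.54. Cycs, the mobile carrier cytochrome c, had 7665 and 7372 with rosiglitazone inside the vehicle values of 6572 and 8467. The log2 fold change of Cycs was 0.01 (standard error 0.23; limma, adjusted p = 0.993) and -0.030 with quantile normalization. Uqcrc2, the partner of Uqcrc1, had 69587 and 101824 with rosiglitazone against 85249 and 73631 with vehicle, with overlap. The small subunits Uqcr11 and Uqcrh had log2 fold changes of 0.22 and 0.18, with no overlap in either.

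Complex IV, which reduces oxygen, had a median of 0.28, with 10 of 12 tested genes above 0. In 6 of the 12 both rosiglitazone arrays lay above both vehicle arrays, where 19.1% of all genes did. No difference between complexes was tested. Cox7a2, the widely expressed form of subunit VIIa, had 43600 and 44352 with rosiglitazone against 31089 and 33664 with vehicle. Its log2 fold change was 0.44 (standard error 0.19; limma, adjusted p = 0.452), the smallest p in the complex. Cox7a2l, a related protein that joins complexes III and IV and that is shortened in C57BL/6 mice, had 12029 and 15478 with rosiglitazone against 10478 and 9640 with vehicle. Cox5b had 52313 and 57189 with rosiglitazone against 38558 and 47142 with vehicle. Cox7b had 27175 and 27766 with rosiglitazone against 19453 and 25705 with vehicle. None of these 4 genes had overlapping groups. Cox4i1, the common form of the largest nuclear subunit, had 9052 and 9486 with rosiglitazone against 8318 and 7055 with vehicle, but a dimmer probe set of Cox4i1 had 774 and 1392 with rosiglitazone against 1279 and 1321 with vehicle.

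Several subunits of complex IV exist as tissue forms. Cox6a1 had 259326 and 326438 with rosiglitazone against 215358 and 272812 with vehicle. Cox6a2, the form of heart, skeletal muscle and brown fat, had 5686 and 6662 with rosiglitazone against 5789 and 4427 with vehicle. Both overlapped, at similar log2 fold changes of 0.26 and 0.28 and standard errors of 0.26 and 0.24. Cox6b1 had 1040 and 1380 with rosiglitazone against 1693 and 1278 with vehicle, with overlap. Cox6b2, the form known from testis, had 1405 and 1434 with rosiglitazone against 1099 and 332 with vehicle. Its log2 fold change of 1.23, the largest of the members tested, had a standard error of 0.59 (limma, adjusted p = 0.491) and was 0.37 without vehicle replicate 4 and 2.10 without vehicle replicate 3. Its probe set is of the kind whose probes may match related sequences. Cox8c, also a form known from testis, had a log2 fold change of 0.08 with overlap.

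Cox7a1 and Cox8b, the forms of muscle and brown fat that the definition leaves out, stood among the others. Cox7a1 had 25423 and 32286 with rosiglitazone against 19400 and 26257 with vehicle, a log2 fold change of 0.34 with overlap. Cox8b had 14937 and 16524 with rosiglitazone against 13168 and 13057 with vehicle on its brighter probe set. The other probe set of Cox8b had 12083 and 16992 with rosiglitazone against 7653 and 10667 with vehicle. The log2 fold changes of Cox8b were 0.26 and 0.66 (limma, adjusted p = 0.688 and 0.382). The rosiglitazone arrays of Cox5a and Cox6c were far apart. Cox5a, a dim member, had 251 and 791 with rosiglitazone against 542 and 326 with vehicle, and the sign of its log2 fold change of 0.08 turned with the arrays used. Cox6c had 104139 and 184733 with rosiglitazone against 127602 and 175839 with vehicle, so that the arrays of both groups interleaved. Its log2 fold change was -0.11, and a much dimmer probe set of Cox6c gave 0.22, also with overlap.

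Complex V had 13 of 13 tested genes above 0, with a median log2 fold change of 0.40. In 7 of the 13 both rosiglitazone arrays lay above both vehicle arrays, where 19.1% of all genes did. Atp5a1, the alpha subunit of the catalytic head, had 118682 and 150032 with rosiglitazone against 98249 and 104586 with vehicle, a log2 fold change of 0.40 (limma, adjusted p = 0.574). Atp5d, the delta subunit of the central stalk, had 23850 and 23926 with rosiglitazone against 13897 and 16321 with vehicle. This gave a log2 fold change of 0.67 (standard error 0.20; limma, adjusted p = 0.232). The other 3 tested probe sets of Atp5d gave 0.34, 0.30 and 0.14, with the groups apart on the first of them and overlapping on the others. Atp5o, which links the head to the peripheral stalk, had 42458 and 32726 with rosiglitazone against 26411 and 22845 with vehicle. It showed no overlap and a log2 fold change of 0.60 (limma, adjusted p = 0.345).

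Other subunits of complex V covered a wide range. Atp5md, a small membrane protein of the enzyme, had 184373 and 270186 with rosiglitazone against 117775 and 161730 with vehicle, a log2 fold change of 0.69 (limma, adjusted p = 0.403). Atp5mpl, a small proteolipid of the enzyme, had 12645 and 22289 with rosiglitazone against 7503 and 12685 with vehicle, and the groups overlapped by the margin between 12645 and 12685. Atp5k, the e subunit, had 5375 and 6434 with rosiglitazone against 3544 and 4355 with vehicle, with no overlap and a log2 fold change of 0.58 (limma, adjusted p = 0.433). Atp5e, the epsilon subunit of the central stalk, had the smallest difference of the complex, with a sign that turned under quantile normalization, at 9120 and 7524 with rosiglitazone against 9150 and 7016 with vehicle. Of the other 4 tested genes, Atp5l (subunit g) had a log2 fold change of 0.34 with no overlap, and Atp5c1 (gamma), Atp5j (a coupling factor) and Atp5pb (subunit b) had 0.17, 0.18 and 0.09 with overlap. A dimmer probe set of Atp5l gave -0.02 with overlap, and a dimmer one of Atp5c1 gave 0.53 with no overlap.

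The c subunits, which form the rotating ring and are coded by several genes for the same mature protein, were represented by Atp5g1 and Atp5g2. Atp5g1 had 1124 and 1168 with rosiglitazone against 948 and 562 with vehicle on its brighter probe set. Its other probe set had 439 and 464 with rosiglitazone against 565 and 546 with vehicle. These probe sets point in opposite directions, at log2 fold changes of 0.65 and -0.30 (limma, adjusted p = 0.667 and 0.910). Atp5g2 had 5764 and 6847 with rosiglitazone against 6295 and 5631 with vehicle, with overlap. In all, 11 genes had several tested probe sets, and for 7 of the 11 every probe set had the same sign.

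The 5 genes with no probe set bright enough for the test were Ndufa12, Ndufc2, Ndufs4, Cox8a and Atp5j2. Atp5j2, the f subunit of complex V, had 604 and 603 with rosiglitazone against 121 and 329 with vehicle. Ndufs4, an accessory subunit of complex I whose loss causes disease, had 433 and 53 with rosiglitazone against 474 and 503 with vehicle. Cox8a had 229 and 526 with rosiglitazone against 437 and 247 with vehicle. Ndufa12 had 291 and 113 with rosiglitazone against 166 and 310 with vehicle, and Ndufc2 had 436 and 147 with rosiglitazone against 114 and 529 with vehicle. The arrays of Cox8a, Ndufa12 and Ndufc2 overlapped, those of Atp5j2 were higher with rosiglitazone and those of Ndufs4 lower.

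As a summary of each array, the deviation of each gene from its own mean over the 4 arrays was taken, and its median over the 66 genes was 0.11 and 0.21 on the rosiglitazone arrays against -0.18 and -0.13 on the vehicle arrays. In complex I the medians were 0.14 and 0.19 with rosiglitazone against -0.22 and -0.09 with vehicle. In complex IV they were 0.03 and 0.25 with rosiglitazone against -0.09 and -0.16 with vehicle. Each of the 5 complexes had both rosiglitazone arrays above both vehicle arrays, as the plot of complexes and marker lists by array shows. With 1 array left out, the median log2 fold change of the 66 genes ran from 0.29 to 0.38, and 55 to 58 genes lay above 0. These fits leave 1 array in a group, so their p-values are not given. Quantile normalization lowered the medians of complexes III, IV and V to 0.18, 0.18 and 0.22.

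Brightness moved with the result, and its part in it was not tested. Of the 66 genes, 57 lay in the brightest 20% of all genes, where 54 of the 57 had a log2 fold change above 0 with a median of 0.38. The 1037 other genes in that range had 587 above 0, or 56.6%, and a median of 0.06, whereas the other genes of the dimmest 20% had a median of -0.12. Both rosiglitazone arrays were above both vehicle arrays for 36 of the 57 members and for 30.7% of the other genes in the brightest 20%, and for 14.8% of the other genes in the dimmest 20%. Within the brightest 20% the members were still brighter, at a median intensity of 28407 against 7001 for the other genes. In the brightest 2% of all genes, 27 of 29 members lay above 0 with a median of 0.43. The 81 other genes there had 56.8% above 0 and a median of 0.03. Both rosiglitazone arrays were above both vehicle arrays for 72.4% of these members and 35.8% of these other genes. Of the members, 17 genes were read from probe sets with a letter before the end of their name, a mark of probes that may match similar sequences or that broke a design rule. Over these 17 the median was 0.34, and over the other 49 genes it was 0.38 with 45 above 0.

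**Figure D3:**
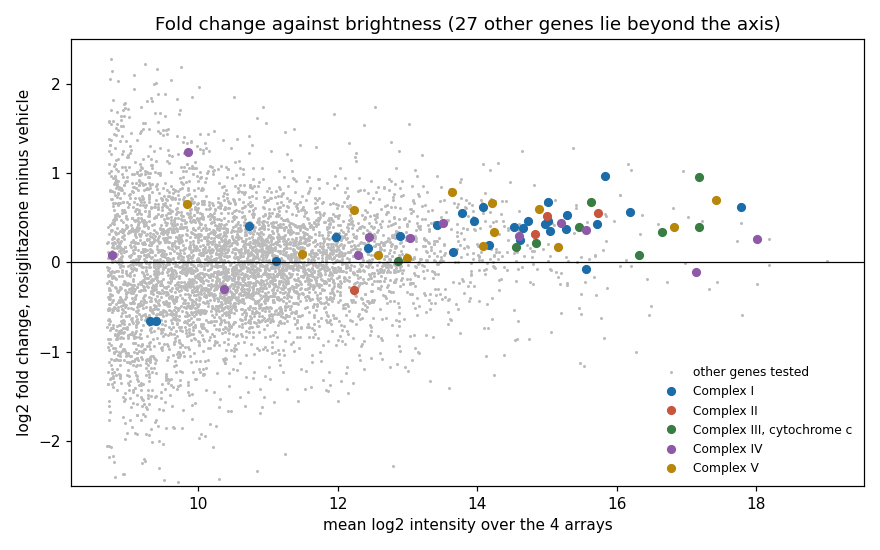
Log2 fold change, rosiglitazone minus vehicle, against mean log2 intensity over the 4 arrays for the 66 module genes by complex (large points) and the other genes tested (small points; 27 lie beyond the axis). Most module genes lie in the bright range and above 0, where 57 are in the brightest 20% of genes.

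Genes that work beside the complexes were read from 3 lists. Of 12 tested genes for electron entry, carriers and uncoupling, 9 lay above 0 with a median of 0.16, 0 passed the threshold and 2 had an unadjusted p under 0.05, Ucp1 and Etfdh, where 5.03% of all genes were higher at that p. Ucp1, the uncoupling protein of brown fat, had 97796 and 73418 with rosiglitazone against 54981 and 33472 with vehicle. A dimmer probe set of Ucp1 had 15356 and 21365 with rosiglitazone against 12313 and 14922 with vehicle. The log2 fold changes of Ucp1 were 0.98 and 0.42 (limma, adjusted p = 0.201 and 0.568). Etfdh, which passes electrons from fatty acid oxidation to ubiquinone, had 5938 and 5610 with rosiglitazone against 3695 and 3297 with vehicle, a log2 fold change of 0.73 (limma, adjusted p = 0.283). The ADP/ATP carrier Slc25a4 had 20737 and 20428 with rosiglitazone against 22173 and 16330 with vehicle, with overlap.

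Of 7 tested genes on the list of assembly and accessory factors, 6 lay above 0 with a median of 0.25 and 0 passed the threshold. Cox17, a copper chaperone for complex IV, had 49381 and 41544 with rosiglitazone against 25805 and 30272 with vehicle, a log2 fold change of 0.70 (limma, adjusted p = 0.227). Lrpprc, which stabilises mitochondrial messenger RNAs, had 7833 and 6816 with rosiglitazone against 4644 and 2260 with vehicle, a log2 fold change of 1.17 (limma, adjusted p = 0.215). Both showed no overlap. Among 7 tested regulators 4 lay above 0 with a median of 0.43, and 0 passed the threshold. The receptor Ppara had 15773 and 22435 with rosiglitazone against 10019 and 10141 with vehicle. The ERR alpha gene Esrra had 7379 and 7541 with rosiglitazone against 5481 and 5349 with vehicle on its brighter probe set. Its dimmer probe set had 2738 and 3301 with rosiglitazone against 2443 and 2822 with vehicle, with overlap. The log2 fold changes of Esrra were 0.46 and 0.20 (limma, adjusted p = 0.476 and 0.844). The gene of PGC-1 alpha, Ppargc1a, was too dim to be tested, with 579 and 368 with rosiglitazone against 208 and 234 with vehicle. The 3 tested regulators below 0 were Pparg, Gabpa and Yy1. Pparg, the receptor that rosiglitazone activates, had 3331 and 1664 with rosiglitazone against 3843 and 3238 with vehicle, with overlap and a log2 fold change of -0.58 (limma, adjusted p = 0.602). Gabpa had 885 and 339 with rosiglitazone against 601 and 859 with vehicle, with overlap. Yy1 had 1638 and 1382 with rosiglitazone against 1738 and 2048 with vehicle, with no overlap and a log2 fold change of -0.33 (limma, adjusted p = 0.778).

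Most markers of brown adipocytes had higher values on the same arrays. Of 7 tested, 6 lay above 0 with a median of 0.34. Of the 7, 1 passed the threshold (Fabp3, a fatty acid binding protein), where 0.0549% of all genes did as higher. In 5 of the 7 both rosiglitazone arrays lay above both vehicle arrays, where 19.1% of all genes did. Dio2, which activates thyroid hormone, had 2979 and 4037 with rosiglitazone against 4378 and 4313 with vehicle, lower with no overlap at a log2 fold change of -0.33 (limma, adjusted p = 0.706). The list holds Cox7a1 and Cox8b, which are respiratory chain genes, and its median is the value of Cox7a1. Summed over the 10 brown adipocyte markers on the array, intensities were 403714 and 436000 with rosiglitazone against 292744 and 287316 with vehicle, with Cidea and Ucp1 the brightest and Zic1 and Elovl3 near the floor. Among general adipocyte markers 4 of 8 lay above 0, with a median of -0.03 and sums of 279939 and 318946 with rosiglitazone against 217851 and 234305 with vehicle. Most of these sums came from Adipoq, with 165554 and 195068 with rosiglitazone against 125080 and 136822 with vehicle. The 4 general adipocyte markers below 0 were Fabp4, Lep, Pparg and Retn. In such bulk RNA a change in the share of a cell type and a change in RNA per cell cannot be told apart, and the part of brown adipocytes in the higher respiratory chain values was not tested.

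Markers of smooth muscle had lower values with rosiglitazone, with 7 of 7 below 0, a median of -1.26 and 1 past the threshold as lower, where 0.329% of all genes were. At an unadjusted p under 0.05, 6 of the 7 were lower, where 5.93% of all genes were. Their summed intensities were 52943 and 58321 with rosiglitazone against 111684 and 134147 with vehicle. Fibroblast markers had 6 of 6 below 0 on the brightest probe set of each, with sums of 84229 and 100671 with rosiglitazone against 128256 and 153748 with vehicle. Most of these sums came from Dcn, with 67401 and 80022 with rosiglitazone against 98447 and 124712 with vehicle. A dimmer probe set of Col1a2 ran the other way, with 5761 and 6483 with rosiglitazone against 4262 and 4320 with vehicle. Macrophage markers had 8 of 9 below 0 with sums of 20602 and 20449 with rosiglitazone against 58417 and 63580 with vehicle. For fibroblast and macrophage markers alike, no overlap was seen between the sums of the groups. Neutrophil markers had 4 of 5 below 0 with sums of 4013 and 5708 with rosiglitazone against 125323 and 191180 with vehicle. Most of the vehicle sums came from S100a8, with 76047 and 131937, and S100a9, with 45381 and 55514. The other tested neutrophil markers, Camp, Mpo and Ltf, had log2 fold changes of -0.81, -0.52 and 0.12, with overlap in Mpo and Ltf. Endothelial markers had 6 of 8 below 0, a median of -0.47 and overlapping sums of 16116 and 18503 with rosiglitazone against 18104 and 23585 with vehicle, while Cldn5, a tight junction protein, had 4315 and 3704 with rosiglitazone against 1555 and 1369 with vehicle. Erythrocyte markers had 3 of 5 below 0, a median of -0.73 and overlapping sums of 507139 and 669608 with rosiglitazone against 563914 and 658396 with vehicle. Striated muscle, which is also rich in respiratory chain protein, had 7 of 13 tested markers above 0 with a median of 0.01 and sums of 39669 and 41302 with rosiglitazone against 41464 and 47013 with vehicle. The part of each of these in the respiratory chain values was not tested.

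**Figure D4:**
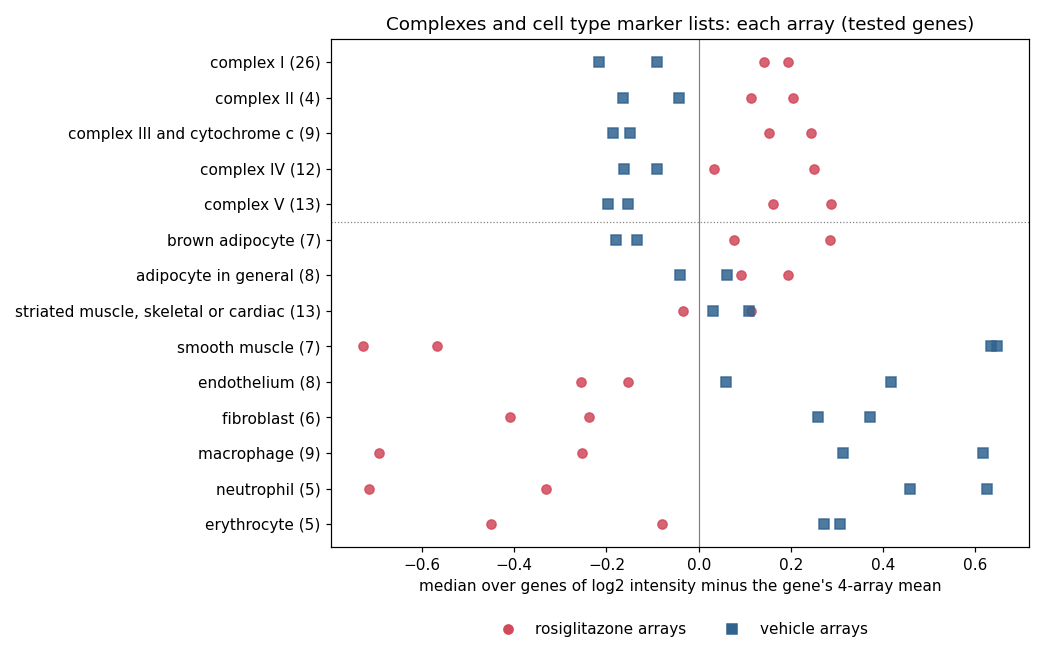
Median over genes of the log2 intensity minus the gene's mean over the 4 arrays, for each complex and each list of cell type markers, with the number of tested genes in brackets (circles, 2 rosiglitazone arrays; squares, 2 vehicle arrays). In every complex and for brown and general adipocyte markers both rosiglitazone arrays lie above both vehicle arrays, and for smooth muscle, endothelium, fibroblast, macrophage, neutrophil and erythrocyte markers both lie below. The general adipocyte list is split, with 4 of 8 log2 fold changes above 0 and a median of -0.03.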

How the data were processed

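The deposited file holds intensities as whole numbers from 2 to 616423, for each probe set and array. The software and background correction behind them are not named. Per the values, the authors' scaling gave each array the same mean with 2% trimmed at each end. Arrays were grouped by their titles. Of 12488 probe sets, 66 controls were left out. Probe sets were named from the platform annotation, and an update of these symbols to the GRCm38.p6 gene table changed 0. Values under 148 (the 20th percentile) were raised to it. Probe sets with a mean log2 intensity at or above that of 414 (the 40th percentile) were kept, and 7134 were tested. The two-sided test was limma 3.58.1's lmFit and eBayes (R 4.3.3) with the trend option and 2 residual degrees of freedom, and p-values were adjusted over all 7134 by Benjamini and Hochberg's method. The fit was tested on simulated data for its estimates of the change, with no check set on its p-values. The number of arrays limits the precision: the smallest exact permutation p over 4 arrays is 0.333. A gene was read from its brightest tested probe set.

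Genes were named if past the threshold, if among the 5 smallest p of a complex (all of complex II), if lowest or highest in a complex, or for their role. With the values already seen, other members (among them Ndufs3, Ndufv2, Uqcrc2, Cox6c and the assembly factors) and Slc25a4, Esrra, Ppargc1a, Pparg, Gabpa, Yy1, Dio2 and Cldn5 were added. The members, lists and promoter motifs were chosen with earlier results of these data known. Alternatives were the floor, the dim filter, the scaling, the trend, the probe set rule and each array left out, and, added after seeing the data, probe sets without a letter suffix.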

Additional observations from a re-analysis of the deposited data

How the results depend on the processing

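No paired analysis was possible because the labels number the rosiglitazone arrays 1 and 2 and the vehicle arrays 3 and 4, so the groups share no number. Under every alternative that kept all 4 arrays, 0 member probe sets passed the threshold in limma. Over all alternatives, 55 to 62 module genes lay above 0 and each complex kept a median above 0. The number of genes tested was not the same throughout. The 62 were of 71 genes, with no filter on dim probe sets and with the floor at the 40th percentile, against 60 of 66 in the main run. In those 2 runs the median over all genes tested was -0.002 and 0. The 26 probe sets called over all genes became 17 with each array centred on its median, 7 without the intensity trend, 0 with no filter on dim probe sets and 0 with the floor at the 40th percentile (both of which let all 12422 probe sets into the test), and from 1 to 78 with 1 array left out. Centring on the median gave log2 fold change medians of 0.45 for the module, 0.49 for complex I, 0.50 for complex II, 0.42 for complex III and 0.48 for complex V. Before centring the array medians were 591 and 620 with rosiglitazone against 648 and 635 with vehicle. Centring therefore raised log2 fold changes across the whole array, not for the members alone. Quantile normalization gave 0.28 for the module, 0.33 for complex I, 0.18 for complex III and 0.22 for complex V. The complex V median was 0.47 with the floor at the 40th percentile and 0.49 with no filter. With 1 array left out the medians ran from 0.29 to 0.38 for the module, 0.29 to 0.45 for complex I, 0.28 to 0.42 for complex II, 0.25 to 0.35 for complex III, 0.20 to 0.41 for complex IV and 0.34 to 0.41 for complex V. Beyond the changes in the genes that entered and in the scaling itself, the cause was not tested. Member probe sets at an unadjusted p under 0.05 and higher numbered 24 with centring, 13 with quantile normalization and 2 without the trend. In the main run they were 17 of 79, where 5.12% of all probe sets were higher. The share over all probe sets was not counted under the alternatives. These counts therefore cannot tell a move of the members from a move of the whole array. Probe sets without a letter suffix gave 45 of 49 genes above 0 and a median of 0.38.

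The alternatives were run for the members named by the rule and not for those added later. Of their values, 12 turned their sign and 432 kept sign and side of the threshold, and none was called. Ndufv1 was 0.014 with median centring, which raised log2 fold changes across the whole array. Cycs was -0.030 and Atp5e -0.025 with quantile normalization, and Cox4i1 was -0.025 as the mean of its probe sets. With 1 array left out, Cycs ran from -0.17 to 0.19, Atp5e from -0.14 to 0.24, Cox5a from -0.74 to 0.91 and Atp5g2 from -0.047 to 0.20. With no detection calls in the table used here, signal over background could not be judged for dim members such as Cox5a.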
